A study of Homo sapiens with 8 samples.

Results

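ISWI remodellers are enzymes that slide nucleosomes along DNA, and the sgRNAs against their subunits were followed in a pooled CRISPR-Cas9 knockout screen of Taxol-resistant breast cancer cells. The 110 sgRNAs described here were all sgRNAs in the library whose target is 1 of 11 ISWI genes, with 10 sgRNAs for each gene, out of 7855 sgRNAs in all. The other sgRNAs were directed against further chromatin genes, apart from 80 non-targeting sgRNAs, and 779 genes with at least 3 sgRNAs were tested. The screen used T1-160, a resistant population obtained from SUM159PT triple-negative breast cancer cells by raising the Taxol dose in steps. All groups carried Cas9 and the lentiviral EPIKOL library and had been selected with puromycin in the presence of verapamil, an inhibitor of drug efflux. The Taxol group (n = 3) was grown in 160 nM Taxol and the DMSO group (n = 3) in the vehicle, both until 16 population doublings had passed. The AP group (n = 2, replicates 1 and 3) was collected after puromycin selection, before the cells were divided into Taxol and DMSO cultures. The study's methods state that the resistant lines were kept in culture at their final Taxol dose, 160 nM for T1-160. They do not say whether this held during infection and selection. The labels do not say whether replicates were separate infections or cultures, so p-values from limma, the main test, measure the spread between these libraries, which may be technical. The AP values stand in the tables as 3 numbers joined in a cell, of which the first and the last were taken as replicates 1 and 3, an order assumed from the names of the tables.

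Each ISWI complex is built around an ATPase, SMARCA5 (SNF2H) or SMARCA1 (SNF2L), that reads the nucleosome and uses ATP to move it, and a large partner that sets where and how it acts. SMARCA5 forms ACF with BAZ1A, WICH with BAZ1B, NoRC with BAZ2A and RSF with RSF1, and ACF becomes CHRAC when the small histone-fold proteins CHRAC1 and POLE3 join. SMARCA1 forms NURF with BPTF and CERF with CECR2, and BAZ2B is a relative of BAZ2A that can pair with either ATPase. These complexes space nucleosomes and act in DNA replication, repair and the silencing of ribosomal DNA. POLE3 also belongs to DNA polymerase epsilon, the leading-strand replicative polymerase, so its sgRNAs do not report on ISWI alone.

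The abundance of an sgRNA is given as its deposited normalized count. Differences are on the scale of log2(normalized count + 1), where changes at low counts appear smaller than they are, and the level of a gene is the mean of this value over its 10 sgRNAs. Each of the 3 comparisons has a table of its own that was scaled on its own, so levels were compared only within a table. The libraries held 2045984 to 11771421 reads, or 260.5 to 1499 reads per sgRNA, and no sgRNA was at 0 in any library. The leading 10 sgRNAs took up 6.23% to 10.6% of the counts in the Taxol libraries, against 2.36% to 2.80% in the DMSO libraries and 1.53% to 2.73% in the AP libraries. The sgRNAs are named by the number in their identifier, and their sequences were not used here.

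After puromycin selection, before the cells were divided into Taxol and vehicle cultures, the ISWI sgRNAs were about as abundant as the rest of the library. In the table of Taxol and AP, the median normalized count of the 110 ISWI sgRNAs was 419.6 in AP 1 and 393.9 in AP 3, while that of all 7775 targeting sgRNAs was 425.6 in AP 1 and 417.1 in AP 3. POLE3 and RSF1 lay at opposite ends. The POLE3 sgRNAs had medians of 784 and 726 in AP 1 and AP 3, and only 15 genes had a higher median level. The RSF1 sgRNAs had medians of 197 and 244.5 (AP 1 and AP 3), with 9 of 10 below the median of the targeting sgRNAs. SMARCA5 had medians of 305 and 324, and its sgRNA 5758 had the lowest count of all 110 in AP 1, at 20.1. RSF1 and SMARCA5 had the lowest medians of the 11 genes in both AP libraries.

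The non-targeting sgRNAs gave the background of the screen. Their median log2 fold change was 0.11 for Taxol over DMSO (n = 80 sgRNAs, range -1.12 to 1.60), 0.43 for DMSO over AP (-1.77 to 2.32) and 0.68 for Taxol over AP (-1.97 to 2.05). The median over all 7855 sgRNAs was 0.04, 0.13 and 0.15 in the same order, and that of the 110 ISWI sgRNAs was 0.05, 0.06 and 0.05. The sign of a small change therefore depends on what is taken as 0. Centring each library on its non-targeting sgRNAs in place of the deposited scaling shifted the median of all genes by -0.17 for Taxol over DMSO, -0.31 for DMSO over AP and -0.53 for Taxol over AP, and scaling all libraries to the same total shifted it by -0.31, -0.38 and -0.74. Of the genes with an unadjusted p under 0.05 in limma, 25% were lower for Taxol over DMSO, 41.2% for DMSO over AP and 27.1% for Taxol over AP on the deposited scaling. These shares were 88.2%, 97.2% and 97.1% after centring on the non-targeting sgRNAs, and 92.2%, 95.9% and 97.7% with equal totals. Values below are on the deposited scaling, and the median of all genes is given beside them.

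Taxol was set against DMSO to find knockouts that made the resistant cells more or less sensitive to the drug. No ISWI gene passed the main test in this comparison, a fit that did not pair libraries by number. By limma on the gene levels, 0 of 11 genes had an unadjusted p under 0.05, where 1.54% of the 779 genes were lower and 4.62% were higher at that threshold, and 0.128% passed after Benjamini-Hochberg adjustment. The 11 log2 fold changes ran between -0.26 (POLE3) and 0.46 (BAZ2A), and their median was 0.14 where that of all genes was 0.03, and 4 were below 0. The median of the 11 was -0.03 with libraries centred on the non-targeting sgRNAs and -0.17 with equal totals, and its distance from the median of all genes was 0.11 under each of these 3 scalings. The lowest adjusted p among the 11 in limma was 0.839, with standard errors of 0.22 to 0.24.

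Among the ATPases, SMARCA5 had levels of 7.71, 7.50 and 7.67 in Taxol 1 to 3, against 7.03, 8.005 and 7.29 in DMSO 1 to 3. The Taxol values all fell inside the wide DMSO range, and the log2 fold change was 0.18 ± 0.23 (SE). SMARCA1 had levels of 8.93, 8.67 and 9.04 in the Taxol libraries, against 8.42, 8.38 and 8.71 in the DMSO libraries. Its 2 highest Taxol libraries lay above every DMSO library and the third did not, with a log2 fold change of 0.38 ± 0.22 (SE) and an unadjusted p of 0.1004 in limma. It was 0.21 with libraries centred on the non-targeting sgRNAs and 0.07 with equal totals.

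Of the large partners of SMARCA5, BAZ2A, the DNA- and RNA-binding subunit of NoRC, was nearest to the threshold. Its levels were 9.02, 8.48 and 9.55 in Taxol 1 to 3, against 8.47, 8.47 and 8.75 in DMSO 1 to 3. Taxol 1 and Taxol 3 stood above all DMSO libraries, while Taxol 2 lay among them. The log2 fold change was 0.46 ± 0.24 (SE), with 8 of 10 sgRNAs higher, an unadjusted p of 0.0679 and an adjusted p of 0.839 in limma. At least 8 of 10 sgRNAs were higher for 2 ISWI genes and for 9.68% of the 775 genes with 10 sgRNAs. Robust rank aggregation (RRA), the gene test named in the study's methods, was run here with exact one-sided p-values. It ranks the sgRNAs and treats those of a gene as independent draws, so that sgRNAs rather than libraries act as its replicates. RRA gave BAZ2A a p of 0.0344 for enrichment and an adjusted p of 0.654. BAZ2A was the 1 ISWI gene of 11 past the unadjusted threshold, which 6.55% of all genes passed. With the replicate number as a block, limma gave BAZ2A an unadjusted p of 0.0464, and the unadjusted p was 0.00886 without Taxol 2 (log2 fold change 0.72) and 0.0467 without DMSO 3 (0.55). Without Taxol 3 the log2 fold change was 0.19 (limma, unadjusted p of 0.452). It was 0.29 with libraries centred on the non-targeting sgRNAs (unadjusted p of 0.307) and 0.15 with equal totals (unadjusted p of 0.639).

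The sgRNAs of BAZ2A differed in which library carried the gain. sgRNA 661, the highest of the 10, had normalized counts of 3270, 335 and 825 in Taxol 1 to 3, against 179, 632 and 544 in DMSO 1 to 3. sgRNA 664 had 514, 1009 and 3444 in the Taxol libraries, against 603.5, 454 and 1078 in the DMSO libraries. The first was highest in Taxol 1 and the second in Taxol 3. sgRNA 668 had 250, 185 and 106 in the Taxol libraries, against 76.3, 96.3 and 91.9 in the DMSO libraries, so that its groups did not overlap. The lowest of the 10, sgRNA 665, had a log2 fold change of -0.54.

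BAZ1A, the partner of SMARCA5 in ACF and CHRAC, had 1 sgRNA whose change stood far above those of the other 9. Its levels were 8.10, 8.44 and 8.77 in Taxol 1 to 3, against 8.62, 8.68 and 8.73 in DMSO 1 to 3. The log2 fold change was -0.24 ± 0.22 (SE), with 9 of its 10 sgRNAs below 0 and a median over the 10 of -0.44. The remaining sgRNA, 648, had normalized counts of 829, 959 and 21614 in Taxol 1 to 3, against 399.9, 483 and 1029.6 in DMSO 1 to 3. The count in Taxol 3 was the highest of any ISWI sgRNA in any library, and the log2 fold change of sgRNA 648, at 2.14, was the highest of the 110. RRA gave BAZ1A a one-sided p of 0.0550 for depletion and an adjusted p of 0.932. With the median over sgRNAs in place of the mean, the log2 fold change of BAZ1A was -0.51 (limma, unadjusted p of 0.0914). BAZ1A was the 1 ISWI gene with at least 8 of 10 sgRNAs lower, which 6.06% of the 775 genes with 10 sgRNAs had.

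The other large partners did not separate the groups. BAZ1B, the WICH subunit with a kinase activity toward histone H2A.X, had a log2 fold change of 0.00 ± 0.23 (SE) with 5 of 10 sgRNAs on either side. RSF1, the histone-binding partner of SMARCA5, was at 0.14 ± 0.22 and BAZ2B, a bromodomain protein, at 0.21 ± 0.23. BPTF, the NURF subunit that binds trimethylated histone H3, was at -0.23 ± 0.23, and CECR2, the bromodomain subunit of CERF, at 0.28 ± 0.23 with 8 of 10 sgRNAs higher. Of these, BAZ1B and RSF1 changed sign under both alternative scalings, while BAZ2B, CECR2 and the ATPase SMARCA5 did so with equal totals only. At least 8 of 10 sgRNAs higher, as for CECR2, were found for 9.68% of the 775 genes with 10 sgRNAs.

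The histone-fold proteins CHRAC1 and POLE3 were the 2 ISWI genes whose Taxol libraries all lay below all DMSO libraries. Across all genes, 4.49% were separated in this direction and 6.29% in the other, in which no ISWI gene was found. CHRAC1 had levels of 8.67, 8.85 and 8.76 in Taxol 1 to 3, against 9.16, 8.89 and 8.97 in DMSO 1 to 3. POLE3 had levels of 8.87, 8.83 and 9.07 in the Taxol libraries, against 9.14, 9.11 and 9.29 in the DMSO libraries. The gaps between the groups were narrow, and neither gene passed the test (log2 fold change -0.24 ± 0.23 for CHRAC1 and -0.26 ± 0.23 for POLE3, SE, adjusted p = 0.909 for both in limma). Both genes had 6 of 10 sgRNAs below 0. With libraries centred on the non-targeting sgRNAs, CHRAC1 was at -0.42 and POLE3 at -0.43, where the median of all genes was -0.14. With equal totals they were at -0.56 and -0.57, where that median was -0.28. Neither gene passed an unadjusted p of 0.05 in limma under these scalings (0.0667 for CHRAC1 and 0.0506 for POLE3 with equal totals).

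At the level of single sgRNAs, limma on all 7855 gave an unadjusted p under 0.05 to 1 ISWI sgRNA that was lower, where the share over the library was 1.55%, and to 1 that was higher, where it was 2.01%. None of the 7855 passed after adjustment. The lower one was POLE3 sgRNA 4604, with normalized counts of 257, 385 and 361 in Taxol 1 to 3, against 583, 1608 and 708 in DMSO 1 to 3. All its Taxol libraries were below all DMSO libraries, and the log2 fold change was -1.40 ± 0.63 (SE, adjusted p = 0.967 in limma). The higher one was SMARCA5 sgRNA 5754, with 926, 163 and 141 in the Taxol libraries, against 88.3, 114 and 94.2 in the DMSO libraries. Its groups did not overlap either, and the log2 fold change was 1.49 ± 0.69 (SE, adjusted p = 0.967), most of which came from Taxol 1. In all, 4 ISWI sgRNAs of 110 were separated with Taxol lower, where 4.26% of the library were, and 7 with Taxol higher, where 4.76% were.

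The comparison of DMSO with AP asked which knockouts were lost or gained during growth in the vehicle. Again no ISWI gene passed an unadjusted p of 0.05 in limma, where 8.73% of all genes were lower and 12.5% were higher, and 2.18% passed after adjustment. The 11 log2 fold changes ran between -0.41 (SMARCA5) and 0.24 (BPTF), and their median was 0.07 where that of all genes was 0.15. That median was -0.24 with libraries centred on the non-targeting sgRNAs and -0.31 with equal totals, and its distance from the median of all genes was -0.08 under each of the 3 scalings. SMARCA5 and POLE3 were the 2 lowest of the 11 on the deposited scaling, on which SMARCA1, BAZ1B and BAZ2A were also below 0. BAZ1A, BAZ2B, BPTF, CECR2, RSF1 and CHRAC1 were above 0 on it. All 11 genes were below 0 under both alternative scalings.

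POLE3 had levels of 9.56, 9.63 and 9.72 in DMSO 1 to 3, against 10.00 and 10.08 in AP 1 and AP 3. Every DMSO library lay below both AP libraries, and POLE3 was the 1 ISWI gene separated in this direction, where 14.1% of all genes were. The mean level was 9.63 ± 0.08 (SD, n = 3) in DMSO and 10.04 ± 0.06 (SD, n = 2) in AP. The log2 fold change was -0.41 ± 0.21 (SE), with an unadjusted p of 0.0606 and an adjusted p of 0.259 in limma. RRA gave POLE3 a one-sided p of 0.0115 for depletion and an adjusted p of 0.197. The unadjusted p in limma was 0.0197 without DMSO 2 and 0.0415 without DMSO 3, but 0.107 without DMSO 1, 0.212 without AP 1 and 0.305 without AP 3. POLE3 was at -0.17 with the median over sgRNAs (unadjusted p of 0.554), -0.72 with libraries centred on the non-targeting sgRNAs and -0.79 with equal totals, the last pair past an unadjusted p of 0.05. With centring and equal totals, 105 and 212 of the 779 genes were lower at that threshold.

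SMARCA5, the ATPase of most of these complexes, had levels of 7.45, 8.52 and 7.72 in DMSO 1 to 3, against 8.09 and 8.52 in AP 1 and AP 3. DMSO 1 and DMSO 3 were below both AP libraries, and DMSO 2 was as high as AP 3. The log2 fold change was -0.41 ± 0.285 (SE), with 8 of 10 sgRNAs lower, an unadjusted p of 0.165 in limma and a one-sided p of 0.0496 for depletion in RRA. SMARCA5 and POLE3 were the 2 ISWI genes of 11 past that RRA threshold, where 11.8% of all genes were, and neither passed after adjustment (0.420 for SMARCA5). SMARCA5 was the 1 ISWI gene with at least 8 of 10 sgRNAs lower, which 9.42% of the 775 genes with 10 sgRNAs had. Without DMSO 2 the log2 fold change of SMARCA5 was -0.72, with an unadjusted p of 0.0101 in limma, while it was -0.19 without DMSO 1, -0.20 without AP 3, -0.32 without DMSO 3 and -0.62 without AP 1, none past the threshold. It was -0.72 with libraries centred on the non-targeting sgRNAs and -0.79 with equal totals, both past an unadjusted p of 0.05 in limma. Under these scalings, 105 and 212 of the 779 genes were lower at that threshold.

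The median count of the SMARCA5 sgRNAs was 202, 368 and 295 in DMSO 1 to 3, and single sgRNAs stood out further in DMSO 2. sgRNA 5758 had normalized counts of 83.4, 634 and 76.1 in DMSO 1 to 3, against 26.4 and 107 in AP 1 and AP 3. sgRNA 5757 had 44.8, 371 and 49.1 in the DMSO libraries, against 37.85 and 241 in the AP libraries. Both were far more abundant in DMSO 2 than in the other DMSO libraries, and sgRNA 5758 had the highest log2 fold change of the 10, at 1.56. The 2 SMARCA5 sgRNAs past an unadjusted p of 0.05 pointed the other way. sgRNA 5754, the lowest of the 10, had 118, 163 and 127 in the DMSO libraries, against 454 and 463 in the AP libraries, and a log2 fold change of -1.76 ± 0.65 (SE, adjusted p = 0.727 in limma). sgRNA 5759 had 37.4, 47.9 and 31.7 in the DMSO libraries, against 145 and 118 in the AP libraries, and a log2 fold change of -1.74 ± 0.71 (SE, adjusted p = 0.727 in limma). Both sgRNAs had every DMSO library at less than every AP library.

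CHRAC1, the partner of POLE3 in CHRAC, did not follow it. Its levels were 9.58, 9.41 and 9.40 in DMSO 1 to 3, against 9.12 and 9.37 in AP 1 and AP 3. CHRAC1 was the 1 ISWI gene with every DMSO library above every AP library, where 29.3% of all genes were, and its log2 fold change was 0.21 ± 0.21 (SE) on the deposited scaling. SMARCA1 was at -0.02 ± 0.225, BAZ1B at -0.01 ± 0.24 and BAZ2A at -0.08 ± 0.21. BAZ1A and CECR2 were at 0.07 ± 0.21 each, BAZ2B at 0.12 ± 0.22, RSF1 at 0.21 ± 0.23 and BPTF at 0.24 ± 0.23 (SE).

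Single sgRNAs past an unadjusted p of 0.05 in limma numbered 3 lower and 1 higher among the 110, where 3.65% of the library were lower and 3.21% were higher. Besides the SMARCA5 pair, the lower one was BAZ1A sgRNA 641, with 78.4, 247 and 192 in DMSO 1 to 3, against 709 and 331 in AP 1 and AP 3 (log2 fold change -1.64 ± 0.71, SE, adjusted p = 0.727). The higher one was RSF1 sgRNA 5291, with 197, 643 and 545 in the DMSO libraries, against 87.2 and 207 in the AP libraries (1.60 ± 0.72, SE, adjusted p = 0.727). Its groups overlapped, since DMSO 1 was below AP 3. Separated libraries were found for 18 ISWI sgRNAs with DMSO lower, where 12% of the library were, and for 10 with DMSO higher, where 11.2% were. The 18 came from 10 of the 11 genes, with at most 3 from any of them.

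The comparison of Taxol with AP covered growth and drug together. One ISWI gene, POLE3, passed an unadjusted p of 0.05 in limma, in the lower direction, where 6.29% of all genes were lower and 16.9% were higher. No ISWI gene passed after adjustment, where 0.128% of all genes did. The 11 log2 fold changes ran between -0.62 (POLE3) and 0.42 (BAZ2A), and their median was 0.06 where that of all genes was 0.20. That median was -0.46 with libraries centred on the non-targeting sgRNAs and -0.68 with equal totals, where all 11 values were below 0, and its distance from the median of all genes was -0.14 under each of the 3 scalings.

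POLE3 had levels of 8.98, 8.94 and 9.19 in Taxol 1 to 3, against 9.61 and 9.70 in AP 1 and AP 3. All 3 Taxol libraries lay below both AP libraries, and the gap between the groups was larger than the range within either. The mean level was 9.04 ± 0.14 (SD, n = 3) in Taxol and 9.66 ± 0.06 (SD, n = 2) in AP. The log2 fold change was -0.62 ± 0.22 (SE), with an unadjusted p of 0.0130 and an adjusted p of 0.147 in limma, and only 22 of the 779 genes had a lower value. RRA, in which sgRNAs act as the replicates, gave POLE3 a one-sided p of 0.000564 for depletion and an adjusted p of 0.0214. It was the 1 ISWI gene of 11 past that adjusted threshold, where 4.62% of all genes were. In limma, the unadjusted p of POLE3 was 0.0797 without AP 1 and 0.124 without AP 3. It was 0.0643 with the replicate number as a block, a fit in which Taxol 2 has no AP library of its number and does not enter the difference. POLE3 was at -1.15 with libraries centred on the non-targeting sgRNAs and -1.36 with equal totals.

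Of the 10 POLE3 sgRNAs, 8 were below 0, none with an unadjusted p under 0.05, and 6 of them had every Taxol library below every AP library, a separation found for 13.6% of the sgRNAs in the library. sgRNA 4606, the lowest, had normalized counts of 156, 252 and 359 in Taxol 1 to 3, against 460 and 664 in AP 1 and AP 3, for a log2 fold change of -1.19. sgRNA 4609, the most abundant of the 10 in AP 1, had 717, 1138 and 1133 in the Taxol libraries, against 2133.5 and 1933.5 in the AP libraries, for -1.06. sgRNA 4603 had 369, 415 and 664 in the Taxol libraries, against 977.5 and 719 in the AP libraries, for -0.84. Each of these was low in every Taxol library. The 2 POLE3 sgRNAs above 0 each had a single high library. sgRNA 4601 had 4898, 874 and 1021 in Taxol 1 to 3, against 1601 and 1250.4 in AP 1 and AP 3, and sgRNA 4608, the highest of the 10 at 0.48, had 316, 310.2 and 1251 in the Taxol libraries, against 231 and 547 in the AP libraries. The SD between the POLE3 sgRNAs was 0.55, against a median of 0.68 over the 775 genes with 10 sgRNAs.

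SMARCA5 had levels of 7.82, 7.61 and 7.79 in Taxol 1 to 3, against 7.71 and 8.14 in AP 1 and AP 3, with 8 of 10 sgRNAs lower. The groups overlapped, and the log2 fold change was -0.18 ± 0.21 (SE). It was -0.71 with libraries centred on the non-targeting sgRNAs and -0.92 with equal totals, both past an unadjusted p of 0.05 in limma, and 0.03 without AP 3. With centring and equal totals, 235 and 250 of the 779 genes were lower at that threshold. sgRNA 5759 was the lowest of the SMARCA5 sgRNAs, with 41.8, 63.5 and 40.7 in the Taxol libraries, against 110.4 and 90.2 in the AP libraries. sgRNA 5751, the highest, had 4000, 400.5 and 2676 in the Taxol libraries, against 252 and 547 in the AP libraries, so that the groups overlapped and Taxol 1 and Taxol 3 carried a log2 fold change of 2.13. SMARCA5 and POLE3, at 8 each, were the 2 ISWI genes with at least 8 of 10 sgRNAs lower, which 9.55% of the 775 genes had.

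BAZ1A was again divided among its sgRNAs. Its levels were 8.21, 8.55 and 8.89 in Taxol 1 to 3, against 8.80 and 8.55 in AP 1 and AP 3, and the log2 fold change was -0.12 ± 0.23 (SE). sgRNA 641 had normalized counts of 84.4, 125 and 74.3 in the Taxol libraries, against 541 and 254 in the AP libraries, for -1.998 ± 0.53 (SE, adjusted p = 0.737 in limma). sgRNA 643 had 84.4, 119.7 and 86.3 in the Taxol libraries, against 410.1 and 228 in the AP libraries, for -1.67 ± 0.50 (SE, adjusted p = 0.737 in limma). These were the 2 lowest of all 110 ISWI sgRNAs, and their Taxol libraries all lay below both AP libraries. sgRNA 648, with 895, 1035.5 and 23531 in the Taxol libraries against 488.5 and 682 in the AP libraries, stood at 2.27. RRA, which weighs the lowest sgRNAs, gave BAZ1A a one-sided p of 0.0115 for depletion and an adjusted p of 0.152, which made 2 of 11 ISWI genes past the unadjusted threshold with POLE3, where 12.8% of all genes were. In limma BAZ1A was at -0.65 with libraries centred on the non-targeting sgRNAs and at -0.86 with equal totals, past the unadjusted threshold in both. Under these scalings, 235 and 250 of the 779 genes were lower at that threshold.

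RSF1 held sgRNAs that passed in opposite directions. sgRNA 5294 had 63.1, 87.9 and 64.7 in Taxol 1 to 3, against 204 and 177 in AP 1 and AP 3, for a log2 fold change of -1.40 ± 0.47 (SE, adjusted p = 0.737 in limma). sgRNA 5291 had 272, 195 and 527 in the Taxol libraries, against 66.5 and 158 in the AP libraries, for 1.55 ± 0.61 (SE, adjusted p = 0.737 in limma). Both were separated between the groups. The levels of RSF1 were 8.01, 7.76 and 8.41 in the Taxol libraries, against 7.41 and 7.93 in the AP libraries, for a gene value of 0.39 ± 0.24 (SE) on the deposited scaling. In all, 3 of the 110 ISWI sgRNAs were lower at an unadjusted p under 0.05, where 3.9% of the library were, and 1 was higher, where 2.24% were.

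The remaining ISWI genes were above 0 on the deposited scaling and below 0 under both alternative scalings. BAZ2B had levels of 8.62, 8.61 and 9.14 in Taxol 1 to 3, against 8.27 and 8.55 in AP 1 and AP 3. CECR2 had levels of 9.30, 8.87 and 9.03 in the Taxol libraries, against 8.64 and 8.69 in the AP libraries. These were the 2 ISWI genes with every Taxol library above every AP library, where 32.3% of all genes were, and 1 gene, POLE3, was separated with Taxol lower, where 14.5% were. The log2 fold change of BAZ2B was 0.38 ± 0.23, that of CECR2 and of SMARCA1 0.40 each (± 0.21 and ± 0.22), and that of BAZ2A 0.42 ± 0.28 (SE). BPTF was at 0.06 ± 0.21, BAZ1B at 0.04 ± 0.20 and CHRAC1 at 0.02 ± 0.20, the last at -0.72 and past an unadjusted p of 0.05 in limma with equal totals. Under that scaling, 250 of the 779 genes were lower at that threshold. In BAZ2B, sgRNA 676 alone had 144, 190.5 and 4227 in the Taxol libraries, against 44.9 and 204 in the AP libraries, for 2.34, while the other 9 were between -0.09 and 0.59. The BAZ2A sgRNAs were the most alike, with 9 of 10 above 0 and an SD between sgRNAs of 0.31. At least 8 of 10 sgRNAs above 0 were found for BAZ2A and BAZ2B, and for 24.4% of the 775 genes. Separated libraries were found for 16 ISWI sgRNAs with Taxol lower, where 13.6% of the library were, and for 9 with Taxol higher, where 12.4% were.

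Several single counts were far above the others of the same sgRNA in 1 Taxol library. Besides BAZ1A sgRNA 648 and BAZ2B sgRNA 676 in Taxol 3, SMARCA1 sgRNA 5730 had 227, 715.5 and 5782 in Taxol 1 to 3, against 345 and 229 in AP 1 and AP 3. SMARCA1 sgRNA 5723 had 2795, 317 and 213 in the Taxol libraries, against 305 and 219 in the AP libraries. BAZ1B sgRNA 651 had 4422, 713 and 558 in the Taxol libraries, against 584 and 575 in the AP libraries. Taxol 1 and Taxol 3 held such counts for different sgRNAs, and these were also the libraries with the largest shares in their 10 most abundant sgRNAs. Their part in the gene levels was not tested on its own, although the fit with the median over sgRNAs gives single sgRNAs less weight.

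Other proteins that work with ISWI complexes gave a reference for the 11 genes. Of 16 such genes on a list of partners, 9 were in the library: RBBP4, RBBP7, MYBBP1A, DEK, SF3B1, MYO1C, DDX21, ERCC6 and CTCF. At an unadjusted p under 0.05 in limma, 1 was lower and none was higher for Taxol over DMSO, 2 were lower and 1 was higher for DMSO over AP, and 2 were lower and none was higher for Taxol over AP. Over all genes, the shares lower and higher were 1.54% and 4.62%, 8.73% and 12.5%, and 6.29% and 16.9%. The median log2 fold changes of the 9 partners were -0.12, -0.06 and -0.20 in the same order, against 0.03, 0.15 and 0.20 for all genes. The histone-binding proteins RBBP4 and RBBP7 were the lower ones in most cases, and both are subunits of NURF as well as of NuRD, PRC2 and other complexes. RBBP7 was at -0.54 ± 0.21 for Taxol over DMSO (SE, adjusted p = 0.640 in limma) and at -0.86 ± 0.20 for Taxol over AP (adjusted p = 0.0744). RBBP4 was at -0.65 ± 0.22 for DMSO over AP (SE, adjusted p = 0.126 in limma) and at -0.80 ± 0.22 for Taxol over AP (adjusted p = 0.0876). RRA for Taxol over AP gave adjusted p-values for depletion of 0.00265 for RBBP7 and 0.0188 for RBBP4, against 0.0214 for POLE3. The next lowest partner was SF3B1, at 0.261, and 4.62% of all genes passed an adjusted p of 0.05 in that test. The RNA helicase DDX21 was at -0.60 ± 0.22 for DMSO over AP (SE, adjusted p = 0.167 in limma), and the DNA-binding protein DEK at 0.66 ± 0.26 in the same comparison (adjusted p = 0.183). RBBP4, RBBP7 and DDX21 in these comparisons were below 0 and past an unadjusted p of 0.05 under both alternative scalings. In all, 3 partners were lower for DMSO over AP and 5 for Taxol over AP with centring on the non-targeting sgRNAs, and 4 and 5 with equal totals, with none higher. Of all 779 genes, 105 and 235 were lower and 3 and 7 higher with centring. With equal totals, 212 and 250 were lower and 9 and 6 higher. DEK was at 0.35 with centring and at 0.27 with equal totals and did not pass under either.

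The ATPases of the other remodeller families served as a second list, with 21 of 23 in the library, ERCC6 being on both lists. For Taxol over DMSO, 1 was lower (CHD8, -0.72 ± 0.24) and 4 were higher at an unadjusted p under 0.05 in limma: CHD2 (0.90 ± 0.28), CHD1 (0.82 ± 0.29), RAD54L2 (0.56 ± 0.22) and CHD6 (0.52 ± 0.24, SE). None passed after adjustment, and 1.54% of all genes were lower and 4.62% higher at the unadjusted threshold. With libraries centred on the non-targeting sgRNAs, CHD2 (0.73) and CHD8 (-0.89) still passed the unadjusted threshold, while CHD1 (0.65), RAD54L2 (0.39) and CHD6 (0.35) did not. With equal totals, CHD1 (0.51) and CHD8 (-1.03) passed, while CHD2 (0.59), RAD54L2 (0.25) and CHD6 (0.21) did not. In the same comparison the ISWI ATPases SMARCA5 and SMARCA1 were at 0.18 and 0.38 and did not pass. For DMSO over AP, none was lower and 2 were higher (CHD9 and SMARCA2), where 12.5% of all genes were higher. For Taxol over AP, none was lower and 4 were higher (CHD1, SMARCA2, CHD5 and CHD6) on the deposited scaling, where 16.9% of all genes were. Under the alternative scalings none of these ATPase calls remained and the calls lay in the other direction. With centring on the non-targeting sgRNAs, 1 was lower for DMSO over AP (CHD4, -0.68) and 5 were lower for Taxol over AP (CHD4, CHD7, CHD8, EP400 and INO80, -0.91 to -0.59), and with equal totals 4 were lower in each comparison. The count of higher calls was 0 in these 4 cases. For DMSO over AP and Taxol over AP, 105 and 235 of all 779 genes were lower with centring, and 212 and 250 with equal totals. Those higher numbered 3 and 7 with centring, and 9 and 6 with equal totals. The median of the 21 was -0.02 for Taxol over DMSO, 0.07 for DMSO over AP and 0.27 for Taxol over AP, against 0.14, 0.07 and 0.06 for the 11 ISWI genes.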

How the data were processed

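sgRNA abundances were taken from 3 deposited tables, 1 for each comparison, in which the authors gave normalized counts per sgRNA and library. The submitters' processing notes name MAGeCK 0.5.8, and the read trimming and alignment are not given in the sources used here. The deposited signal is a count multiplied by a factor for each library that brings the median sgRNA to a like level, and the tables were scaled separately. Values below 1000 were whole multiples of 1 read within 0.1 read in 100% of cases, from which the reads per library were recovered. No count model was run. The tables also hold the authors' own fold changes, scores, p-values and gene rankings, which were not used. A row that repeats header words (1 in every table) was left out. For AP a cell lists 3 values but only replicates 1 and 3 have labels, so 2 columns of values were not used here.

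Gene levels were means of log2(normalized count + 1) over the sgRNAs of a gene, for genes with at least 3 sgRNAs. They were tested with limma 3.58.1 (lmFit and eBayes with a trend, two-sided) in R 4.3.3, within each table, and p-values were adjusted by Benjamini-Hochberg over all 779 genes or 7855 sgRNAs. An unadjusted p of 0.05 is the study's threshold. With 3 libraries against 3, an exact permutation test cannot go below 0.1 and was not used. RRA over the top 25% of ranks was run as an alternative. The other alternatives were a pseudocount of 5, a minimum mean count of 50, centring on the non-targeting sgRNAs, equal totals, the median over sgRNAs, array weights, the replicate number as a block, and leaving out each library. The scripts were tested on simulated data.

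All 11 genes are named, with their sgRNAs past the unadjusted threshold and those with the lowest and highest change. Further sgRNAs were chosen after their values were seen. The genes and lists were chosen with earlier results of these data known. For Taxol and DMSO, the deviations of same-numbered libraries from their group means correlated at 0.19, 0.15 and 0.22. Those of differently numbered libraries correlated at -0.13 to -0.05, but deviations within a group cancel out, which pushes these values down. The numbers may therefore pair these libraries, as far as the order of the values in the cells can be relied on. The main fit did not use the numbers, and the fit with the replicate number as a block did.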

Additional observations from a re-analysis of the deposited data

How the results depend on the processing

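The results for the 11 ISWI genes depended most on the scaling and on single libraries. Of the values of single genes under the alternatives, 311 kept their sign and their side of an unadjusted p of 0.05, 24 passed it only under the alternative, 3 passed it only in the original fit, and 69 changed sign. The last were all values that had not passed on the deposited scaling, and the cause was not tested apart from the scalings, which move all genes together. A pseudocount of 5 and a minimum mean count of 50 changed no count of ISWI genes past the threshold.

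With array weights, for Taxol over DMSO BAZ1B was at -0.10, and for DMSO over AP BAZ1B was at 0.086. With the median over sgRNAs in place of the mean, for Taxol over DMSO BAZ1B was at -0.0742, BPTF at 0.29 and RSF1 at -0.0809, and for DMSO over AP BAZ2B was at -0.37 and CECR2 at -0.10, and for Taxol over AP BAZ1B was at -0.20. With libraries centred on the non-targeting sgRNAs, for Taxol over DMSO BAZ1B was at -0.17 and RSF1 at -0.0333, and for DMSO over AP BAZ1A was at -0.24, BAZ2B at -0.19, BPTF at -0.0664, CECR2 at -0.24, RSF1 at -0.10 and CHRAC1 at -0.0948, and for Taxol over AP SMARCA1 was at -0.13, BAZ1B at -0.49, BAZ2A at -0.11, BAZ2B at -0.15, BPTF at -0.46, CECR2 at -0.13, RSF1 at -0.13 and CHRAC1 at -0.51. With equal totals, for Taxol over DMSO SMARCA5 was at -0.12, BAZ1B at -0.31, BAZ2B at -0.10, CECR2 at -0.0293 and RSF1 at -0.17, and for DMSO over AP BAZ1A was at -0.31, BAZ2B at -0.26, BPTF at -0.14, CECR2 at -0.31, RSF1 at -0.17 and CHRAC1 at -0.17, and for Taxol over AP SMARCA1 was at -0.34, BAZ1B at -0.70, BAZ2A at -0.32, BAZ2B at -0.36, BPTF at -0.68, CECR2 at -0.34, RSF1 at -0.34 and CHRAC1 at -0.72. With the replicate number as a block, for DMSO over AP SMARCA1 was at 0.0059 and BAZ1B at 0.20, and for Taxol over AP CHRAC1 was at -0.0257.

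Leaving out 1 library at a time, the log2 fold change for Taxol over DMSO changed sign for BAZ1B (-0.24 to 0.18), RSF1 (-0.0341 to 0.29) and SMARCA5 (-0.021 to 0.47). For DMSO over AP it did so for BAZ1A (-0.0608 to 0.20), BAZ1B (-0.17 to 0.20), BAZ2A (-0.18 to 0.0098), BAZ2B (-0.016 to 0.26), RSF1 (-0.0474 to 0.47) and SMARCA1 (-0.27 to 0.22). For Taxol over AP it did so for BAZ1A (-0.29 to 0.0479), BAZ1B (-0.037 to 0.11), BPTF (-0.0603 to 0.18), CHRAC1 (-0.11 to 0.145) and SMARCA5 (-0.40 to 0.0336).

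The number of ISWI genes past an unadjusted p of 0.05 was 0 for Taxol over DMSO, 0 for DMSO over AP and 1 for Taxol over AP in limma. Of all genes, 6.16%, 21.2% and 23.2% passed. With RRA the number was 1 (enriched), 2 and 2 (depleted), where 6.55%, 11.8% and 12.8% of all genes passed in these directions. For DMSO over AP the number in limma was 2 (SMARCA5 and POLE3) with array weights, with centring on the non-targeting sgRNAs and with equal totals. Of all genes, 29.5%, 13.9% and 28.4% passed under these settings. For Taxol over AP the number was 3 with that centring, where 31.1% of all genes passed, and 4 with equal totals, where 32.9% did. Without 1 Taxol or DMSO library the number ran between 0 and 1 for Taxol over DMSO, between 0 and 2 for DMSO over AP and between 1 and 3 for Taxol over AP. Of all genes, 5.01% to 8.86%, 19.1% to 25.3% and 22% to 30.4% passed in these fits. Fits that leave a single AP library are not in these ranges. Genes that passed the threshold without 1 library but not with all libraries were BAZ2A (without Taxol 2 or DMSO 3) for Taxol over DMSO, SMARCA5 (DMSO 2), POLE3 (DMSO 2 or DMSO 3) and BPTF (DMSO 3) for DMSO over AP, and BAZ2A and CECR2 (Taxol 2) and RSF1 (AP 3) for Taxol over AP. After adjustment, POLE3 was the 1 ISWI gene to pass for Taxol over AP with RRA, array weights, centring or equal totals, and for DMSO over AP with equal totals, and none passed in limma without any 1 library. Of all 779 genes, 63, 154 and 51 passed after adjustment for Taxol over AP with array weights, centring and equal totals in limma. For DMSO over AP, 103 did so with equal totals. The median of the 11 genes for DMSO over AP was -0.10 with the median over sgRNAs, -0.24 with centring and -0.31 with equal totals. It was -0.46 and -0.68 under these scalings for Taxol over AP, and -0.0333 and -0.17 for Taxol over DMSO. Without 1 library it ran between -0.0341 and 0.25 for Taxol over DMSO.

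Of the 110 ISWI sgRNAs, 2, 4 and 4 passed an unadjusted p of 0.05 in limma for Taxol over DMSO, DMSO over AP and Taxol over AP, where 3.56%, 6.86% and 6.14% of the library did. With array weights these numbers were 1, 8 and 8 (library 3.69%, 9.89% and 8.26%). For DMSO over AP and Taxol over AP they were 7 and 11 with centring (6.59% and 11.1%) and 8 and 15 with equal totals (8.1% and 11.3%). Without 1 Taxol or DMSO library they ran between 2 and 4 (3% to 4.51%), between 7 and 8 (8.07% to 9.26%) and between 3 and 10 (6.99% to 8.92%). Again, fits that leave a single AP library are not in these ranges. Over all 779 genes, the number past an adjusted p of 0.05 in limma was 1 for Taxol over DMSO (0 to 4 under the alternatives), 17 for DMSO over AP (0 to 103) and 1 for Taxol over AP (0 to 154).

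AP has no replicate 2, so with the block DMSO 2 or Taxol 2 does not enter a difference from AP, and those values differ from the others by more than the block: SMARCA5 for DMSO over AP was at -0.72 both with the block and without DMSO 2. With the replicate number as a block, 1 ISWI gene passed an unadjusted p of 0.05 for Taxol over DMSO (BAZ2A), 2 for DMSO over AP (SMARCA5 and POLE3) and 2 for Taxol over AP (BAZ2A and RSF1), and 1, SMARCA5, passed after adjustment for DMSO over AP. The block gave 6, 7 and 8 ISWI sgRNAs past the unadjusted threshold, and 3, 67 and 64 of all genes past the adjusted one. With the block, 7.83%, 25.9% and 29.3% of all genes passed the unadjusted threshold, and 4.99%, 9.17% and 9.13% of all sgRNAs. For libraries of the same number, the correlation of deviations was -0.0002 and -0.05 for DMSO with AP, and -0.05 and 0.04 for Taxol with AP. The deviations of 2 AP libraries from their mean mirror each other, so these values cannot show whether the numbers pair AP with the other groups. Taxol 2, with 260.5 reads per sgRNA, was the shallowest library, and with 2 AP libraries the spread of that group is poorly known.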
